A study of Homo sapiens with 6 samples.

Results

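The genes described here are 32 integrin subunits and focal adhesion proteins, followed in 6 RNA-sequencing libraries of U87, an established human glioma cell line. Members were taken by gene symbol from a fixed list, matched to the Ensembl identifiers of the deposited tables, by a rule that uses no measured value. The list itself was chosen with earlier results of these data known. All 32 were found among 57905 deposited identifiers, and all 32 passed the filter on low counts that left 14578 genes for testing. They comprise 10 alpha and 5 beta integrin subunits and 17 cytoplasmic proteins of the adhesion plaque. The group labelled siRBM47 holds 3 libraries of U87 cells with the genotype and treatment labels siRBM47, for an siRNA against the RNA-binding protein RBM47. The control group holds 3 libraries of U87 cells labelled WT, with the treatment label no. The protocol text, which is the same for all 6 libraries, describes lipid delivery of 100 pmol of siRNA and names no control siRNA. Whether control cells were transfected is therefore not known, and all libraries come from 1 cell line. The labels do not say that replicates are separate cultures, and p-values here rest on library-to-library spread that may be technical.

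Integrins are receptors made of 1 alpha and 1 beta chain that bind extracellular matrix outside the cell. Inside, talin and kindlin bind the beta tail and activate the receptor, and vinculin, filamin and alpha-actinin tie it to actin. The kinases FAK and Src, the scaffolds paxillin and p130Cas and the adaptor Crk pass the signal on. In glioma, integrins with the alpha-V chain, and alpha-5/beta-1, have been studied for adhesion to and invasion through matrix.

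Total counts ranged from 15580000 to 18130000 per library, rounded. RBM47 itself was measured at 3.54, 2.74 and 2.23 CPM (read counts after scaling for depth) in siRBM47 and at 1.62, 1.73 and 5.75 in control, so its level did not separate the groups, and it does not bear out the labels. Throughout, siRBM47 names libraries so labelled, not cells shown to have less RBM47 RNA. Control replicate 3 stood apart from the other controls, with a Pearson correlation of log2 CPM across genes of 0.941 and 0.95 with them, against 0.988 between those. Because of this, results that rest on that library are also given without it. With siRBM47 replicates 1 to 3, control replicate 3 correlated at 0.956, 0.959 and 0.962, so closer than with the other controls. Control replicate 1 correlated with the same libraries at 0.949, 0.963 and 0.953, and control replicate 2 at 0.952, 0.965 and 0.959. Of glial markers, the intermediate filament gene VIM was at 3368 to 4572 CPM in siRBM47 and 2831 to 4939 in control. The astrocyte genes GFAP and S100B were at 1.49 CPM or less in every library, and AQP4 had no count, so these defining astrocyte markers were at or near 0. This does not hold for the whole list, since 7 of the 10 glial markers passed the filter on low counts. The edgeR test used below called 0 of these higher and 0 lower. At an unadjusted p under 0.05, 1 was higher and 1 lower (7.15% and 8.94% of all genes). DESeq2 called 1 higher (1.79% of all genes), as did edgeR without control replicate 3 (10.1%). Immune markers summed to 24.1 to 32 CPM in siRBM47 and 13.5 to 26.1 in control, nearly all from CSF1R, with AIF1 and TYROBP at 0. Endothelial markers summed to 9.72 to 11.8 CPM in siRBM47 and 13.7 to 17.6 in control. Of these lists 1 immune and 4 endothelial genes were tested, and edgeR called 0. At an unadjusted p under 0.05, the immune gene was higher and 1 endothelial gene lower. DESeq2 called 1 endothelial gene lower (2.63% of all genes). Without control replicate 3, edgeR called the immune gene and 1 endothelial gene higher (10.1% of all genes) and 1 endothelial gene lower (11.3%). The 8 epithelial markers summed to 24.7 to 29 CPM in siRBM47 and 20.3 to 43.2 in control. In these 3 fits 0 of the 6 epithelial genes tested were called, and 1 was lower at an unadjusted edgeR p under 0.05 with all libraries.

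The sequences shown are the 250 bases before the RefSeq start (GRCh38.p14) of the alpha-V and beta-5 subunit genes and of vinculin, in each of which control replicates 1 and 2 were the lowest libraries, and of filamin A, in which siRBM47 replicate 1 was. Windows were at hand for 25 of the 32 members, 48 windows in all. Regions are ITGAV at chr2:186589806-186590055 (plus strand), ITGB5 at chr3:124901419-124901668 (minus), VCL at chr10:73997866-73998115 (plus) and FLNA at chrX:154374635-154374884 (minus), each written 5′ to 3′ along its gene. Capitals mark matches on either strand to the GC box (GGGCGG), the TEAD site (GGAATG), the AP-1 site (TGANTCA) or the CArG box of serum response factor.
ITGAV: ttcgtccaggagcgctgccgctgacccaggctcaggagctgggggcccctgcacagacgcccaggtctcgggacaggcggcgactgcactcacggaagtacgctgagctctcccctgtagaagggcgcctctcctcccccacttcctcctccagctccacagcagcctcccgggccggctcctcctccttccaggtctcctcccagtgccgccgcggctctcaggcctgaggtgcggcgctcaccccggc
ITGB5: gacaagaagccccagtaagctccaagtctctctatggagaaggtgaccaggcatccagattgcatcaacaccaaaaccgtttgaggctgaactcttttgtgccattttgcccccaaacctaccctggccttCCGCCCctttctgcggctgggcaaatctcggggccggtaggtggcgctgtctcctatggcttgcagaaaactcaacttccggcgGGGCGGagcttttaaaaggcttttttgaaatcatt
VCL: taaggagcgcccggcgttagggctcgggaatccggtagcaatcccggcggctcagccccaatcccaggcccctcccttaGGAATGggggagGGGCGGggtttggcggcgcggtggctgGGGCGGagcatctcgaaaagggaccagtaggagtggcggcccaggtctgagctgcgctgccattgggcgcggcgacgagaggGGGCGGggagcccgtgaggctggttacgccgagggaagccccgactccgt
FLNA: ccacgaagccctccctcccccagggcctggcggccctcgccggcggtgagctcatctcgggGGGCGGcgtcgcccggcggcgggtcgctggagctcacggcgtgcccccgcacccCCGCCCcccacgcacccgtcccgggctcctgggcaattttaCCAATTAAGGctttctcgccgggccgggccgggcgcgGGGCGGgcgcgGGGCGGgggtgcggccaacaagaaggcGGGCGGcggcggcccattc
The ITGAV window held none of these motifs. ITGB5 held 2 GC boxes, starting 119 and 35 bases before the start (-119 and -35). The VCL window, which begins inside the longer GENCODE gene, held 3 GC boxes and 1 TEAD site (-171). FLNA held 5 GC boxes and 1 CArG box (-94). Over all 48 windows of members, 56.2% had a GC box, 16.7% a TEAD site, 6.2% an AP-1 site and 4.2% a CArG box. Of all 35116 windows of the same length, 42.6%, 11.9%, 6.6% and 1.2% had them, in the same order. A match describes letters only.

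With all 6 libraries and the filter on low counts, none of the 32 genes passed the test of siRBM47 against control. The edgeR quasi-likelihood test at an adjusted p under 0.05 gave 0 members higher and 0 lower, against 0.0823% and 0.137% of all tested genes. DESeq2 gave 0 members (1.79% of all genes higher, 2.63% lower), as did limma-voom (0.0892% and 0.144%). At an unadjusted p under 0.05, edgeR gave 2 members higher, PARVA and CRK, and 0 lower, where 7.15% and 8.94% of all genes were in those classes. The groups did not overlap for 3 members: PARVA and CRK were higher in siRBM47 (11.6% of all genes) and TLN1 was lower (11% of all genes). The median log2 fold change was -0.14 over the members and -0.01 over all tested genes, with 12 members positive and 20 negative. Without control replicate 3 the member median changed sign, to 0.14, with 20 positive and 12 negative, against 0.02 over all tested genes.

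Within the control group the spread was wide, and control replicate 3 lay at one end of it for most members. It was above both other controls for 27 of 32 members (84.4%), against 44.9% of all tested genes, and for all 15 integrin subunits. It was above every other library for 17 members (53.1%), against 25.4% of all genes. Its log2 difference from the mean of the other controls had a median of 0.56 over the members, 1.14 over the integrin subunits and 0.01 over all tested genes. Without it, edgeR called 8 members higher in siRBM47 (10.1% of all genes) and 1 lower (11.3% of all genes), that is 25% and 3.12% of the members. The higher ones were ITGAV, ITGA4, ITGB5, ITGB8, VCL, FERMT2, PARVA and CRK, and the lower one was PXN. The fit without this library rests on 2 controls that were much alike. It leaves out a control that correlated more closely with every siRBM47 library than with the other controls.

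**Figure D1:**
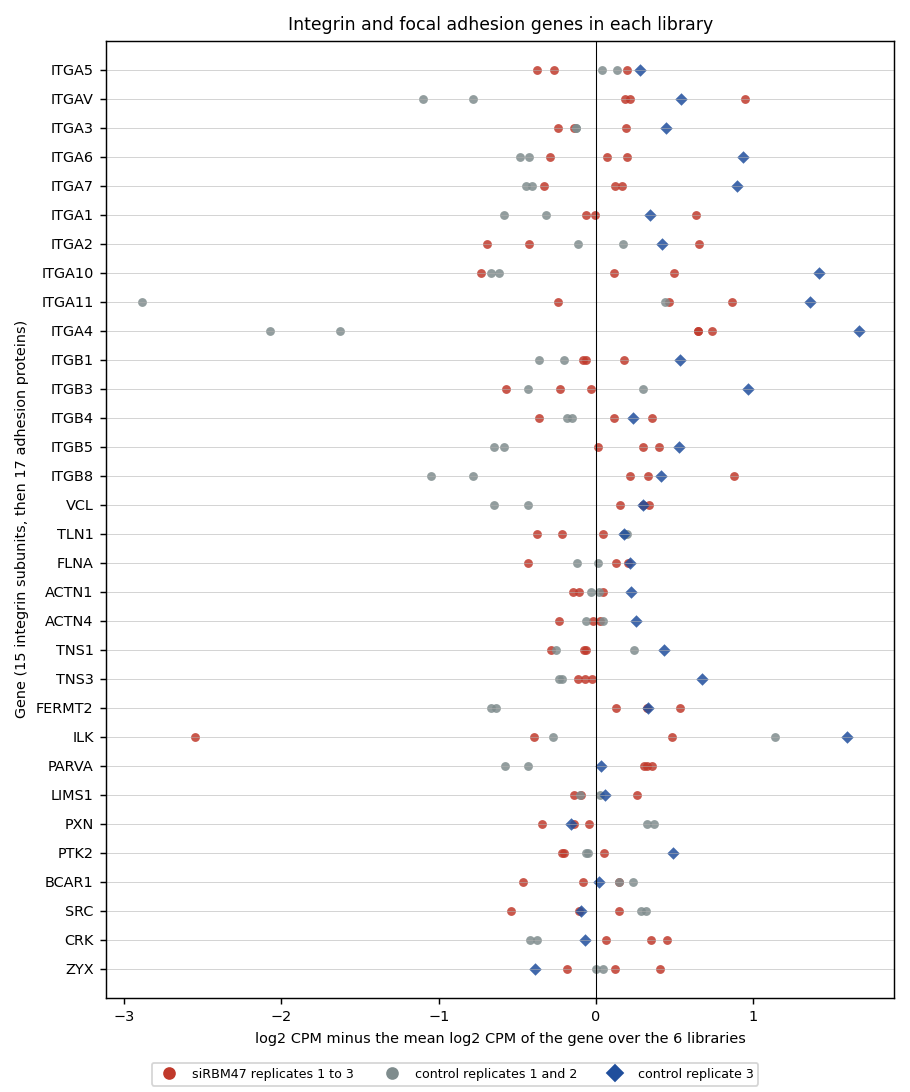
Each point is the log2 CPM of a gene in 1 library minus that gene's mean over the 6 libraries (x axis), for 32 genes (y axis). Red points are siRBM47, grey points control replicates 1 and 2, and blue diamonds control replicate 3, which is to the right of both grey points for all 15 integrin subunits.

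The alpha-V chain, which binds ligands with the RGD motif such as vitronectin and fibronectin, was high in siRBM47 against control replicates 1 and 2. ITGAV (ENSG00000138448, GRCh38 chromosome 2, 186590065 to 186680901, plus strand) was at 205, 124 and 121 CPM in siRBM47 and 49.8, 61.9 and 155 in control. The siRBM47 libraries were all above control replicates 1 and 2, but control replicate 3 lay between them, so the groups overlapped. edgeR put the log2 fold change at 0.76 (SE 0.41, 95% interval -0.15 to 1.67, adjusted p = 0.4). Without control replicate 3 it was called higher, at 1.43 (SE 0.23, adjusted p = 0.000961). With no filter on low counts it was called with all 6 libraries too, at 0.78 (adjusted p = 0.0326), where 1.2% of 27110 genes were called higher and 1.76% lower.

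The alpha-5 chain, the fibronectin receptor partner of beta-1, went the other way without passing. ITGA5 was at 509, 758 and 549 CPM in siRBM47 and 680, 727 and 801 in control, a log2 fold change of -0.28 (SE 0.20, 95% interval -0.74 to 0.17, adjusted p = 0.531). Of its 3 siRBM47 libraries, 2 were below every control and 1 was within the control range.

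Among laminin receptors, ITGA3 was by far the most abundant, at 988, 1334 and 1058 CPM in siRBM47 and 1069, 1069 and 1590 in control. ITGA6 was at 21.1, 19.3 and 15 CPM in siRBM47 and 13.7, 13.2 and 35.1 in control. ITGA7 was at 16.4, 23.1 and 22.5 CPM in siRBM47 and 15.2, 15.5 and 38.4 in control. In each of the 3 genes control replicate 3 was the highest library. Their log2 fold changes were -0.14 to -0.16 with all libraries and turned to 0.08, 0.46 and 0.43 without it, none past the threshold.

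Of the collagen receptors, ITGA1 was at 26.8, 16.6 and 17.2 CPM in siRBM47 and 11.5, 13.9 and 21.9 in control (log2 fold change 0.35, SE 0.30). ITGA2 was at 21.8, 8.57 and 10.3 CPM in siRBM47 and 12.8, 15.6 and 18.6 in control (-0.21, SE 0.35). Both had their highest value in siRBM47 replicate 1. ITGA10 was at 1.49, 3.49 and 2.68 CPM in siRBM47 and 1.56, 1.61 and 6.6 in control. ITGA11 rested on 13, 27 and 21 counts in siRBM47 and 17, 2 and 41 in control, too few for a narrow interval (-1.67 to 1.63). Without control replicate 3 none of the 4 collagen receptors passed.

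ITGA4, which pairs with beta-1 or beta-7 and binds VCAM1 and fibronectin, was near 0 in control replicates 1 and 2 alone. ITGA4 (ENSG00000115232, chromosome 2, 181457202 to 181536187, plus strand) had 43, 39 and 40 counts in siRBM47 and 5, 8 and 85 in control. That is 2.38, 2.23 and 2.23 CPM in siRBM47 and 0.339, 0.46 and 4.52 in control, with control replicate 3 above every other library. edgeR gave a log2 fold change of 0.34 (SE 0.79, 95% interval -1.43 to 2.10, adjusted p = 0.87), and 2.48 without control replicate 3 (SE 0.47, adjusted p = 0.00274).

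Of the beta chains, beta-1 was the common partner and was not called in either fit. ITGB1 was at 822, 694 and 686 CPM in siRBM47 and 565, 629 and 1050 in control, a log2 fold change of -0.03 (SE 0.25, 95% interval -0.59 to 0.53). Its siRBM47 libraries were all above control replicates 1 and 2 and below control replicate 3. In the edgeR fit without control replicate 3 the log2 fold change of ITGB1 was 0.30 (SE 0.14, adjusted p = 0.156). ITGB4, the laminin receptor chain of hemidesmosomes, was at 1.93, 2.69 and 3.18 CPM in siRBM47 and 2.23, 2.19 and 2.93 in control. ITGB3 was at 12.7, 14.6 and 10.0 CPM in siRBM47 and 11.0, 18.3 and 29.1 in control (-0.65, SE 0.34, adjusted p = 0.379). Its counts are uncertain, since 51.6% of its exon length is shared with AC068234.1 on the same strand in GENCODE release 29.

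In ITGB5 and ITGB8, as in ITGAV and ITGB1, control replicates 1 and 2 were the lowest libraries. ITGA1, ITGA4, ITGA6 and ITGA7 had the same order, and its share over all genes was not computed. ITGB5 (ENSG00000082781, chromosome 3, 124761948 to 124901418, minus strand) was at 109, 143 and 133 CPM in siRBM47 and 69.0, 72.1 and 156 in control. ITGB8, whose alpha-V dimer binds latent TGF-beta (ENSG00000105855, chromosome 7, 20330702 to 20415754, plus strand), was at 9.28, 6.34 and 5.87 CPM in siRBM47 and 2.44, 2.93 and 6.71 in control. For both genes the siRBM47 libraries were above control replicates 1 and 2. Control replicate 3 was above every siRBM47 library for ITGB5 and within their range for ITGB8. The log2 fold changes were 0.38 (SE 0.31, adjusted p = 0.585) and 0.82 (SE 0.40, adjusted p = 0.353). In the fit that leaves out control replicate 3 these passed, at 0.87 (SE 0.16, adjusted p = 0.0026) for ITGB5 and 1.41 (SE 0.30, adjusted p = 0.00548) for ITGB8.

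**Figure D2:**
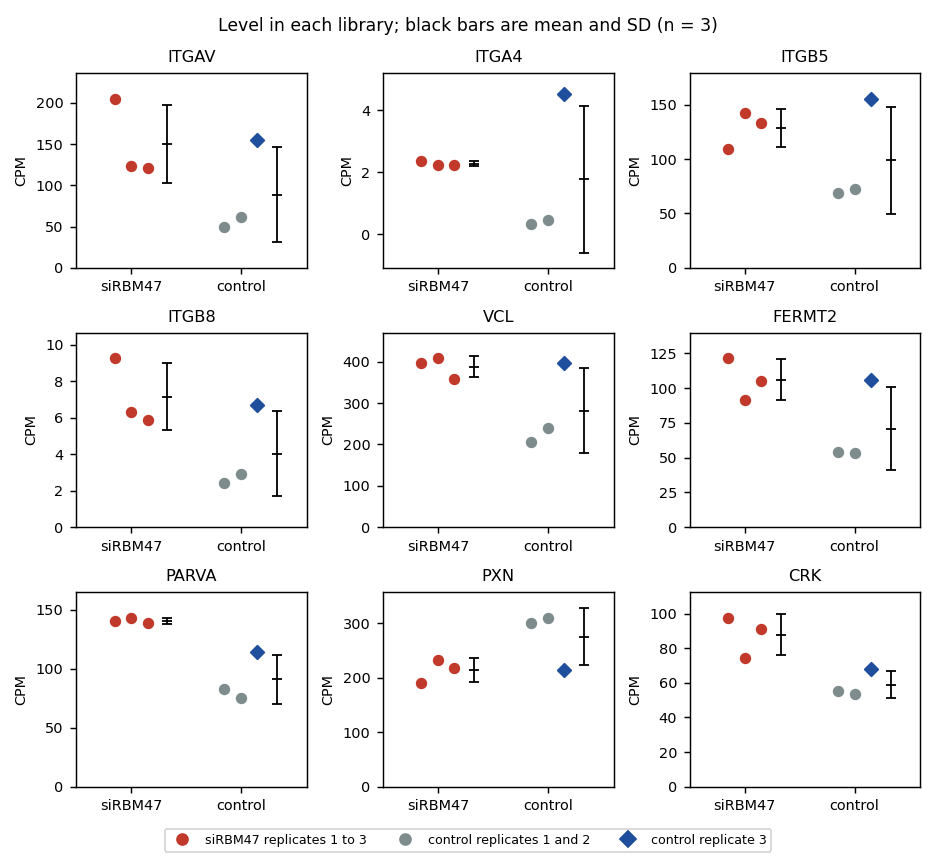
Level in CPM (y axes, 1 panel per gene) in each siRBM47 library (red, left) and each control library (right; grey for replicates 1 and 2, blue diamond for replicate 3), with mean and SD in black (n = 3). PARVA and CRK do not overlap between groups, and in the other 7 panels control replicate 3 lies within or beyond the siRBM47 values.

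Levels of different genes were compared per length, as the FPKM of the authors, which scales fragments by transcript length and depth. ITGB1 (119 ± 12.9 in siRBM47 and 121 ± 41.8 in control, SD, n = 3 each) and ITGA3 (114 ± 17.5 and 125 ± 29.6) were the highest subunits and did not differ beyond their spread. ITGA5 followed, at 79.3 ± 16.8 FPKM in siRBM47 and 96.0 ± 7.46 in control. ITGB5 (19.8 ± 2.55 and 15.2 ± 7.45) and ITGAV (18.2 ± 5.88 and 10.7 ± 6.85) came next and overlapped each other. ITGA7, ITGB3 and ITGA6, at 2.51 to 3.92 FPKM in the group means, did not differ beyond their spread. ITGA2 averaged 1.71 ± 0.914 FPKM in siRBM47 and 1.96 ± 0.352 in control, and ITGA1 1.08 ± 0.312 and 0.839 ± 0.286. ITGA10, ITGB4, ITGB8, ITGA4 and ITGA11 were at 1.03 FPKM or less in every library, in an order within their spread.

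Shares of the summed FPKM were set against each other within each library, 19 shares in all, and none passed after adjustment. Of the summed FPKM of ITGB1, ITGB3, ITGB5, ITGB6 and ITGB8, ITGB5 made up 11.0%, 16% and 15.3% in siRBM47 and 10.2%, 9.49% and 12.0% in control, with overlap. The difference of means was 3.55 percentage points (exact permutation test, two-sided, p = 0.2, where 0.1 is the smallest p that 3 against 3 libraries allow). In an alternative sum without ITGB1, which mostly pairs with other alpha chains, the ITGB5 share was 83.5%, 86.4% and 89.2% in siRBM47 and 81.4%, 73.9% and 78.8% in control. The ITGB3 share was 12.7%, 11.5% and 8.79% in siRBM47 and 17.1%, 24.6% and 19.3% in control. Neither of these overlapped, and in both control replicate 3 lay between the other controls (exact permutation p = 0.1 for each, the smallest possible, or 0.345 after Benjamini-Hochberg adjustment over the 19 shares). Both make up nearly the whole of that sum, so they are 1 result and not a pair of them. The ITGB3 share carries the reservation on its shared exons. With ITGB1 in the sum, the ITGB3 share overlapped between groups (exact permutation p = 0.2). The ITGB8 share of that sum was 0.396%, 0.301% and 0.287% in siRBM47 and 0.153%, 0.164% and 0.219% in control. It did not overlap with or without ITGB1 in the sum (exact permutation p = 0.1 for each, 0.345 after adjustment).

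On the alpha side, ITGA3 held 49.5%, 52.2% and 52.9% of the summed FPKM of the 10 alpha subunits in siRBM47 and 51.4%, 49.6% and 53.4% in control. ITGA5 held 33%, 38.4% and 35.5% in siRBM47 and 42.3%, 43.6% and 34.8% in control. The difference of the ITGA5 means was -4.63 points (exact permutation p = 0.3, two-sided). Control replicates 1 and 2 were above every siRBM47 library in this share, and control replicate 3 was within the siRBM47 range. ITGAV held 12.3%, 5.78% and 7.23% in siRBM47 and 2.86%, 3.42% and 6.21% in control, overlapping at control replicate 3 (exact permutation p = 0.2).

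**Figure D3:**
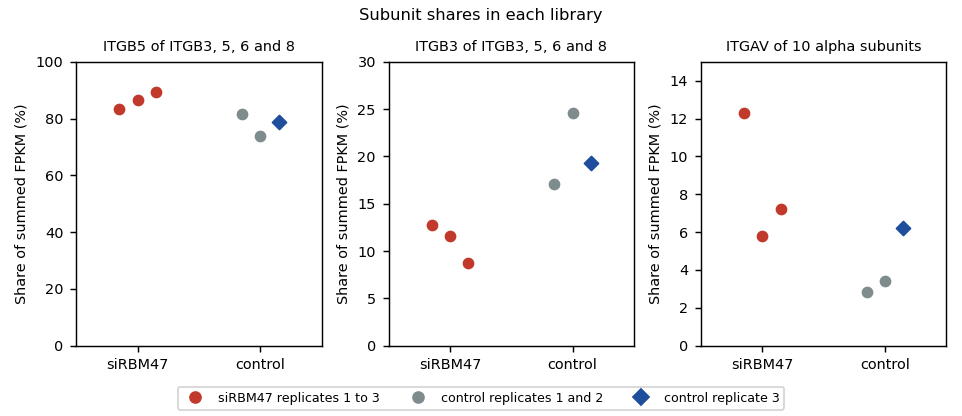
Share of summed FPKM in percent (y axes) held by ITGB5 and by ITGB3 among ITGB3, ITGB5, ITGB6 and ITGB8, and by ITGAV among 10 alpha subunits, in each siRBM47 library (red, left) and control library (right). The 3 siRBM47 libraries lie above all controls for ITGB5 and below them for ITGB3, whereas for ITGAV control replicate 3 lies within the siRBM47 range.

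Among the proteins that join integrins to actin, vinculin, kindlin-2 and tensin-3 also had control replicates 1 and 2 as their lowest libraries. PARVA and CRK, below, had this order too, and its share over all genes was not computed. VCL (ENSG00000035403, chromosome 10, 73995193 to 74121363, plus strand) was at 398, 409 and 359 CPM in siRBM47 and 206, 239 and 398 in control. FERMT2, which encodes kindlin-2 (ENSG00000073712, chromosome 14, 52857268 to 52952435, minus strand), was at 122, 91.7 and 105 CPM in siRBM47 and 54.1, 53.0 and 106 in control. In both, control replicate 3 stood inside the siRBM47 range. The log2 fold changes were 0.47 (SE 0.25, adjusted p = 0.401) for VCL and 0.58 (SE 0.28, adjusted p = 0.349) for FERMT2. Without that control they were called higher, at 0.80 (SE 0.15, adjusted p = 0.00217) and 0.99 (SE 0.17, adjusted p = 0.0014). VCL shares 11.1% of its exon length with AP3M1 on the opposite strand, and the library kit, NEBNext Ultra, keeps no strand information.

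Talin-1, which activates integrins through the beta tail, was lower in every siRBM47 library. TLN1 was at 461, 617 and 514 CPM in siRBM47 and 686, 675 and 675 in control, where the 3 controls were nearly equal. edgeR gave a log2 fold change of -0.35 (SE 0.18, adjusted p = 0.373, 95% interval -0.76 to 0.05), and -0.36 without control replicate 3 (adjusted p = 0.102), so it did not pass in either fit. The actin crosslinkers FLNA (-0.05), ACTN1 (-0.14) and ACTN4 (-0.16) had small log2 fold changes. Their intervals ran from -0.54 to 0.43, from -0.53 to 0.25 and from -0.56 to 0.24. FLNA was at 1415, 2198 and 2083 CPM in siRBM47 and 1761, 1932 and 2216 in control. ACTN1 was at 642, 733 and 658 CPM in siRBM47 and 696, 720 and 828 in control, and ACTN4 at 538, 642 and 623 in siRBM47 and 604, 653 and 754 in control. CAPN12 on the opposite strand covers 14.2% of the ACTN4 exon length. Of the tensins, TNS1 was at 12.3, 14.2 and 14.3 CPM in siRBM47 and 12.5, 17.7 and 20.1 in control. TNS3 was at 35.8, 38 and 36.9 CPM in siRBM47 and 32.9, 33.3 and 61.7 in control, and neither passed.

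The ILK, PINCH and parvin complex links beta tails to actin, and its parvin gene was the member with the smallest p. PARVA (ENSG00000197702, chromosome 11, 12377185 to 12535356, plus strand) was at 140, 143 and 138 CPM in siRBM47 and 83.1, 75.1 and 115 in control. Every siRBM47 library was above every control. edgeR estimated a log2 fold change of 0.63 (SE 0.20, 95% interval 0.18 to 1.08, unadjusted p = 0.0113, adjusted p = 0.183), a ratio between 1.13 and 2.11, and 0.83 (SE 0.15, adjusted p = 0.00184) without control replicate 3. LIMS1, which encodes PINCH-1, was at 190, 149 and 144 CPM in siRBM47 and 161, 147 and 165 in control (log2 fold change 0.03, SE 0.18). ILK had only 9, 16 and 2 counts in siRBM47 and 8, 25 and 37 in control. In the annotation 78.5% of its exon length is covered by TAF10 and 2 other genes on the opposite strand, so this value cannot be read as the level of ILK.

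Among the signalling proteins, the adaptor CRK was higher in siRBM47 and the scaffold paxillin lower, each past the threshold only without control replicate 3. CRK (ENSG00000167193, chromosome 17, 1420689 to 1463162, minus strand) was at 97.7, 74.6 and 91.1 CPM in siRBM47 and 55.2, 53.5 and 68.0 in control, with no overlap. Its log2 fold change was 0.58 (SE 0.19, unadjusted p = 0.0144, adjusted p = 0.198), and 0.69 (SE 0.17, adjusted p = 0.0104) without control replicate 3. PXN (ENSG00000089159, chromosome 12, 120210439 to 120265771, minus strand) was at 190, 233 and 218 CPM in siRBM47 and 301, 310 and 215 in control. Its control replicate 3 lay inside the siRBM47 range. The log2 fold change of PXN was -0.37 (SE 0.20, adjusted p = 0.408), and -0.52 (SE 0.14, adjusted p = 0.0207) without control replicate 3. Antisense and other opposite-strand genes cover 12.4% of PXN exons.

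PTK2, the gene of focal adhesion kinase, was at 86.9, 72.9 and 72.1 CPM in siRBM47 and 80.2, 81.1 and 118 in control (log2 fold change -0.27, SE 0.21). SRC was at 25.6, 41.1 and 34.5 CPM in siRBM47 and 45.4, 46.4 and 34.8 in control (-0.32, SE 0.23). BCAR1, which encodes p130Cas, was at 110, 168 and 143 CPM in siRBM47 and 179, 168 and 154 in control (-0.25, SE 0.20). ZYX, the LIM protein zyxin of mature adhesions, was at 246, 370 and 304 CPM in siRBM47 and 288, 278 and 213 in control (0.24, SE 0.21). In none of these 4 genes were the groups apart, and none passed with or without control replicate 3.

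**Figure D4:**
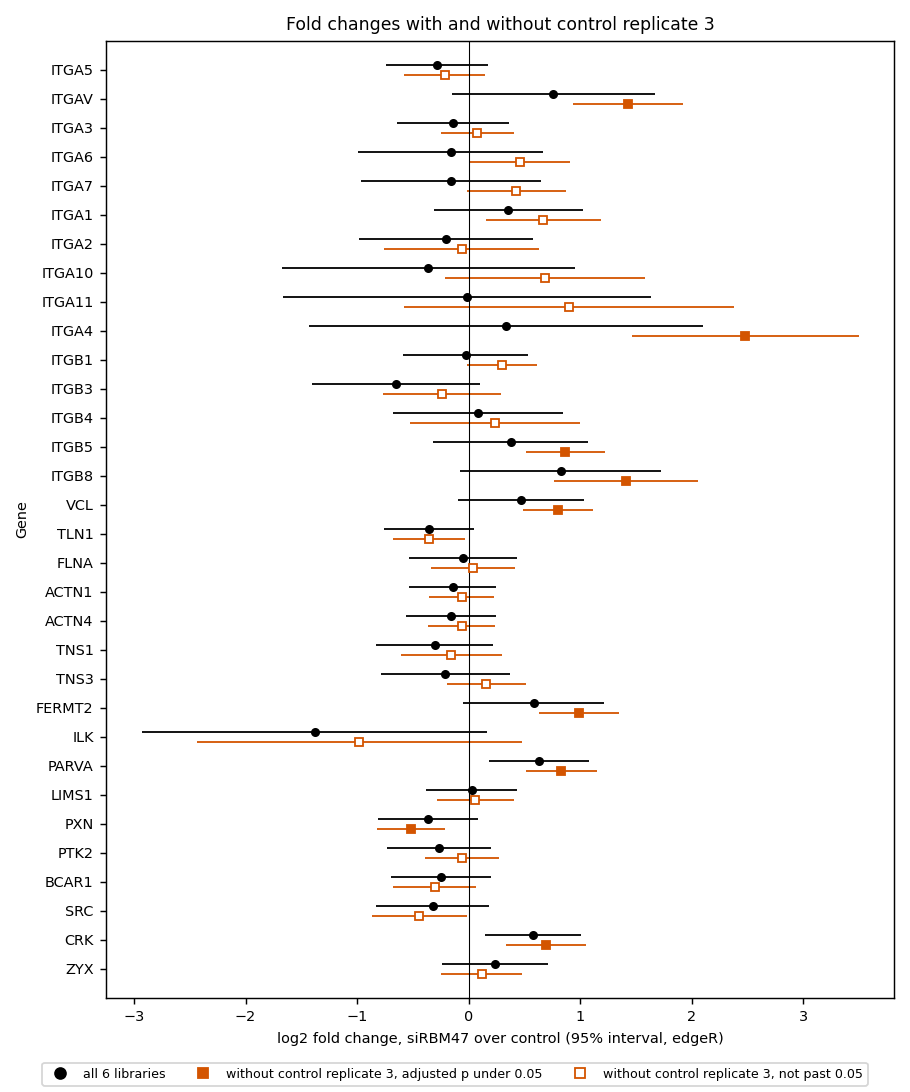
Log2 fold change of siRBM47 over control with its 95% interval (x axis) for each of the 32 genes (y axis), from all 6 libraries (black) and without control replicate 3 (orange, filled where adjusted p is under 0.05). With all libraries none of the points passed, and without control replicate 3 the 9 filled points are ITGAV, ITGA4, ITGB5, ITGB8, VCL, FERMT2, PARVA, PXN and CRK.

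Other integrin subunits were mostly silent, and 4 of 11 listed were tested. None passed by edgeR (0 higher, 0 lower), with 2 lower at an unadjusted p under 0.05, where 8.94% of all genes were lower. ITGAX, the alpha-X chain of leukocytes, was at 6.68, 5.94 and 3.85 CPM in siRBM47 and 15.6, 14.2 and 13.7 in control. Every siRBM47 library was below every control, and control replicate 3 was like the other controls. The log2 fold change was -1.40 (SE 0.26, adjusted p = 0.0716 by edgeR), and DESeq2 called it lower (adjusted p = 0.00023), as did edgeR without control replicate 3 (adjusted p = 0.00149). Its neighbour ITGAD was at 0.608, 0.914 and 1.28 CPM in siRBM47 and 2.57, 2.36 and 2.24 in control (-1.35, SE 0.40, adjusted p = 0.157). ITGB2, the beta chain of these receptors, did not pass the filter, at 0.391 to 0.457 CPM in siRBM47 and 0.426 to 1.55 in control.

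Of 40 other adhesion proteins on a further list, 38 were tested, and edgeR called 0 higher and 0 lower. At an unadjusted p under 0.05 there were 8 higher and 3 lower, where 7.15% and 8.94% of all genes were. DESeq2 called 3 higher and 1 lower (7.89% and 2.63% of the list, against 1.79% and 2.63% of all genes). Without control replicate 3, edgeR called 15 higher and 4 lower (39.5% and 10.5% of the list, against 10.1% and 11.3% of all genes). The median log2 fold change was 0.24, against -0.01 over all genes. TGFB1I1, which encodes the paxillin relative Hic-5, was at 105, 140 and 121 CPM in siRBM47 and 58.6, 52.1 and 66.6 in control (1.04, SE 0.19, adjusted p = 0.0716). CSRP1, a LIM protein of actin bundles, was at 409, 506 and 461 CPM in siRBM47 and 227, 249 and 299 in control (0.83, SE 0.19, adjusted p = 0.0966). PDLIM7 was at 266, 370 and 309 CPM in siRBM47 and 196, 186 and 129 in control (0.89, SE 0.22, adjusted p = 0.114). In these 3 genes, named for their small p, the groups did not overlap. In the list, 11 of 38 genes were higher without overlap, against 11.6% of all genes.

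On the lower side of that list, FERMT3, the kindlin of blood cells, was at 14.8, 20.6 and 16.4 CPM in siRBM47 and 46.1, 42.6 and 20.8 in control (-1.08, SE 0.30, adjusted p = 0.141). GIT1, a scaffold that binds paxillin, was at 63.3, 85.8 and 83.7 CPM in siRBM47 and 145, 137 and 101 in control (-0.72, SE 0.21, adjusted p = 0.154). FLNC, the filamin of muscle, was at 357, 549 and 449 CPM in siRBM47 and 677, 768 and 626 in control (-0.61, SE 0.21, adjusted p = 0.199). None of the 3, which were named for their small p, overlapped between the groups, and FERMT3 was apart only by 20.6 against 20.8 CPM. In the list, 5 of 38 genes were lower without overlap, against 11% of all genes.

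Ratios between a member and its paralogue in the same library do not depend on library scaling. They were chosen after the values had been seen, and 18 pairs were compared. The groups did not overlap in 5 of them, with the ratio higher in siRBM47 in 3 of the 18 and lower in 2 of the 18. Of single genes, 11.6% were higher and 11% lower without overlap. That share is for single genes, and none was computed for ratios. Each of the 5 had an exact permutation p of 0.1, the smallest possible with 3 against 3, or 0.327 after Benjamini-Hochberg adjustment over the 18. The FPKM of TGFB1I1 over that of PXN was 0.761, 0.831 and 0.767 in siRBM47 and 0.269, 0.232 and 0.428 in control, a log2 difference of 1.39. It was 1.65 without control replicate 3, and 0.88 against control replicate 3 alone.

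TLN2 over TLN1 was 0.0453, 0.0391 and 0.0473 in siRBM47 and 0.0194, 0.0218 and 0.0317 in control, a log2 difference of 0.88. NEDD9, a relative of p130Cas, over BCAR1 was 0.175, 0.112 and 0.133 in siRBM47 and 0.0125, 0.0124 and 0.0861 in control. The log2 difference of that pair was 2.54, 3.47 without control replicate 3 and 0.68 against it alone. FLNC over FLNA (log2 difference -0.56) and TRIP6 over ZYX (-0.24) were lower in every siRBM47 library. FERMT3 over FERMT2 was 0.339, 0.625 and 0.434 in siRBM47 and 2.37, 2.24 and 0.547 in control, so control replicate 3 overlapped the siRBM47 libraries.

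**Figure D5:**
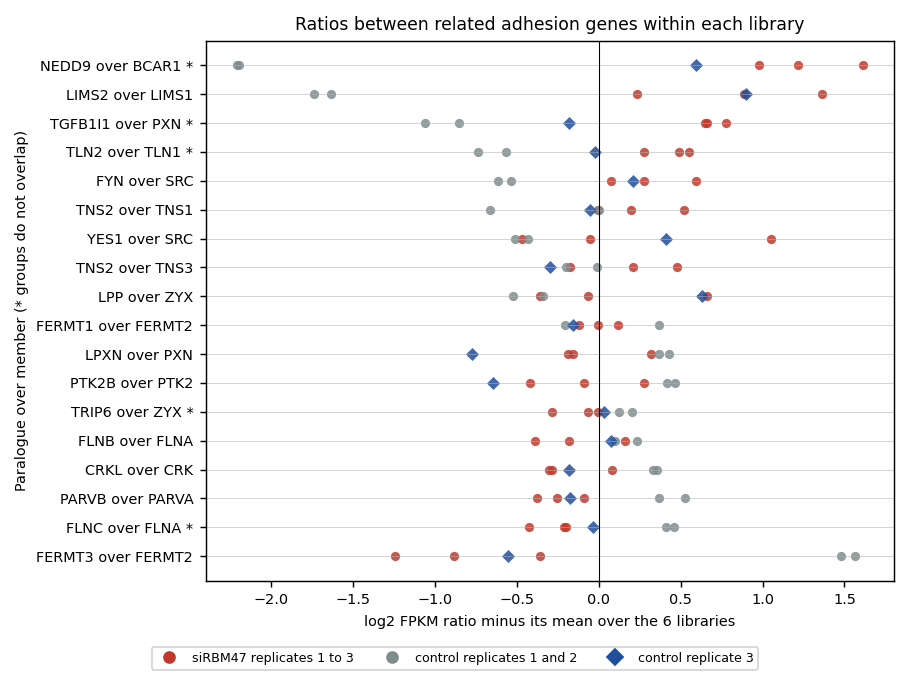
Log2 ratio of the FPKM of a paralogue to that of a listed gene in each library, minus the mean of that ratio over the 6 libraries (x axis), for 18 pairs (y axis). Red points are siRBM47, grey points control replicates 1 and 2 and blue diamonds control replicate 3; in the 5 pairs with an asterisk the red points do not overlap any control.

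Among integrin ligands in the matrix, 23 of 27 listed genes were tested, and edgeR called 0 higher and 0 lower. At an unadjusted p under 0.05, 3 were higher and 2 lower, where 7.15% and 8.94% of all genes were. COL5A1, a fibrillar collagen chain, was at 717, 1013 and 635 CPM in siRBM47 and 203, 197 and 477 in control (1.43, SE 0.35, adjusted p = 0.114), with no overlap, and was called by DESeq2 (adjusted p = 0.00364). FN1, the fibronectin gene, was at 4025, 4059 and 2636 CPM in siRBM47 and 1908, 1949 and 3098 in control (0.62, SE 0.26, adjusted p = 0.277). COL1A1 had a log2 fold change of 1.07 (SE 0.43, adjusted p = 0.269). The laminin chains LAMB2 (-0.58, SE 0.20, adjusted p = 0.21) and LAMA4 (-0.75, SE 0.28, adjusted p = 0.239) were below every control in every siRBM47 library. Without control replicate 3, 9 ligands were called higher and 1 lower (39.1% and 4.35% of the list, against 10.1% and 11.3% of all genes).

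Of 8 genes that mark fibroblasts and pericytes, 6 had a positive and 2 a negative log2 fold change. They summed to 1939, 3034 and 1902 CPM in siRBM47 and 756, 747 and 2063 in control, most of it COL1A1, with control replicate 3 again among the siRBM47 values. LUM was at 61.8, 45.7 and 58.8 CPM in siRBM47 and 15.4, 18.2 and 87.9 in control. PDGFRB was at 43.8, 58.7 and 40.9 CPM in siRBM47 and 21.1, 20.4 and 60.2 in control. FAP was at 38.2, 30.6 and 29.6 CPM in siRBM47 and 16, 17 and 35.7 in control. The negative ones were PDGFRA, at 5.69, 6.06 and 7.76 CPM in siRBM47 and 5.69, 7.37 and 17.4 in control, and CSPG4, at 63.8, 92.9 and 64.6 CPM in siRBM47 and 106, 96.3 and 58.4 in control. Control replicate 3 was above every other library for 4 of the 8 and below every other for 2. In this list 0 of 8 were called with all libraries, also by DESeq2 and limma-voom. At an unadjusted p under 0.05, 1 was higher (7.15% of all genes). Without control replicate 3, 4 were called higher (50% of the list, against 10.1% of all genes). Their part in the values of the integrin genes was not tested, and in bulk RNA fewer cells of a type and less RNA per cell cannot be told apart.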

How the data were processed

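RNA of 6 U87 libraries was sequenced, 3 labelled siRBM47 and 3 labelled control, grouped by title and treatment label. Per the submitters' processing notes, reads were aligned to hg38 by HISAT2 2.0.5, and gene counting used featureCounts 1.5.0-p3. Not given in the sources used here: annotation release, strand setting and read filters. Per the file headers, the deposited tables hold raw counts per gene and FPKM per gene, both made by the authors. Identifiers were turned into symbols by a supplied table, and positions and exon overlaps were read from GENCODE release 29 (GRCh38).

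Counts were tested with edgeR 4.0.16 (quasi-likelihood, TMM scaling, filterByExpr with a minimum count of 10) under R 4.3.3, with Benjamini-Hochberg adjustment over 14578 genes and a threshold of 0.05. CPM use the scaled library sizes, and each SE was obtained from the fold change and its F statistic. FPKM served to compare levels between genes and were tested only as shares and ratios, by exact permutation. DESeq2 1.42.0, limma-voom (limma 3.58.1), RLE and upper quartile scaling, a replicate block, no filter, a higher minimum count (50) and leave-one-out fits were tried. The edgeR step was tested on simulated data. Replicates within a group differed by more than sampling noise (chi-square per degree of freedom 10.74 to 144.83). Low counts limit precision for the scarce members.

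The members and lists were chosen with earlier results of these data known. Each tested member has its CPM in every library, or for ILK and ITGA11 its counts. Full statistics are given for members with an unadjusted p under 0.05, or an adjusted p under 0.05 without control replicate 3, and up to 3 genes per direction of each further list are named by p. PECAM1 of the endothelial list was not found by symbol.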

Additional observations from a re-analysis of the deposited data

How the results depend on the processing

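For the 32 members, other scaling, DESeq2, limma-voom, the minimum count of 50 (27 members tested) and the replicate block gave 0 calls. No filter gave 1 higher, ITGAV. With 1 library left out, calls ranged from 0 to 8 higher and 0 to 1 lower, and all 9 came without control replicate 3. Over all genes the counts were 12 higher and 20 lower; DESeq2 gave 261 and 383, no filter 326 and 478, and the higher minimum count 19 and 23. Leaving out 1 library gave 0 to 1473 higher and 0 to 1644 lower: 6 and 13 without control replicate 1, 4 and 8 without control replicate 2, 1473 and 1644 without control replicate 3, and 0 and 0 without siRBM47 replicate 1, 2 or 3, where 643 to 821 genes were higher and 802 to 1047 lower at an unadjusted p under 0.05.

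For the further lists, where all 6 libraries gave 0, DESeq2 and no filter each called 1 other integrin subunit lower. Of other adhesion proteins, DESeq2 called 3 higher and 1 lower and no filter 5 and 1. Of ligands, DESeq2 called 1 and no filter 2 higher, and each called 1 tetraspanin or regulator lower. With 1 library left out these ranged from 0 to 2 lower integrin subunits, 0 to 15 higher and 0 to 4 lower adhesion proteins, 0 to 9 higher and 0 to 1 lower ligands, and 0 to 1 higher and 0 to 3 lower tetraspanins or regulators. The upper end in each case was without control replicate 3, where 10.1% of all genes were called higher and 11.3% lower. Over all genes, DESeq2 called 1.79% higher and 2.63% lower, and no filter 1.2% and 1.76%.

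Of the 219 member fold changes under settings that keep all libraries, 213 kept direction and call and 5 reversed. ITGA11 (-0.02) became 0.63 by limma-voom, 0.0007 with no filter and 0.26 with the replicate block, and ITGB1 (-0.03) became 0.0231 by limma-voom and 0.0239 with the block. With 1 library left out, the range crossed 0 for 12 members: ITGA2 -0.73 to 0.0570, ITGA3 -0.26 to 0.0757, ITGA4 -0.12 to 2.48, ITGA6 -0.39 to 0.46, ITGA7 -0.38 to 0.43, ITGA10 -0.68 to 0.68, ITGA11 -0.54 to 0.90, ITGB1 -0.18 to 0.30, ITGB4 -0.0872 to 0.26, FLNA -0.16 to 0.12, LIMS1 -0.11 to 0.10 and TNS3 -0.35 to 0.16. The difference in ITGB5 share (3.55 points) became 8.30 points without ITGB1. The replicate block, which pairs equal numbers in the titles, gave 15 genes higher and 24 lower and 0 members. Deviations of same-numbered libraries correlated at -0.04, 0.13 and 0.12, and not every library correlated best with its own number, so the numbers were not taken as pairs. Members with few counts, such as ILK, ITGA11 and ITGA10, are limited by depth. The cause of these shifts was not tested.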

Other observations

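Tetraspanins and other membrane partners of integrins were tested for 15 of 16 listed genes. By edgeR 0 were higher and 0 lower. At an unadjusted p under 0.05, 0 were higher and 1 lower (7.15% and 8.94% of all genes). DESeq2 called 1 lower (2.63% of all genes). CD82, a tetraspanin that lowers integrin-mediated migration in cell culture, was at 43.3, 54.5 and 58.6 CPM in siRBM47 and 72.6, 91.3 and 103 in control. The groups did not overlap, and the log2 fold change was -0.77 (SE 0.21, adjusted p = 0.129 by edgeR and 0.0302 by DESeq2). It was -0.65 (adjusted p = 0.0188, edgeR) without control replicate 3. Without that library, CIB1 and PLAUR were also called lower and CD47 higher, named here after their values were seen. In that fit 6.67% of the list was called higher and 20% lower, against 10.1% and 11.3% of all genes. The median log2 fold change of the list was -0.11.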
